A study of Mus musculus with 23 samples.

Results

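The genes described here are 48 developmental transcription factor genes of mouse, outside the Hox clusters, picked by name from the 23369 gene names measured by RNA-seq. They comprise 7 LIM homeobox genes (Lhx2 to Lhx6, Lhx8 and Lhx9), 9 PAX genes (Pax1 to Pax9), 6 NKX genes (Nkx2-1, Nkx2-2, Nkx2-3, Nkx2-5, Nkx2-9 and Nkx6-1), 5 sine oculis homeobox genes (Six2 to Six6), 6 DLX genes (Dlx1 to Dlx6), 6 IRX genes (Irx1 to Irx6), 2 MSX genes (Msx1 and Msx2), 2 engrailed genes (En1 and En2), 2 PITX genes (Pitx1 and Pitx3) and 3 MEIS genes (Meis1 to Meis3). The rule uses names and no measured value, although the list was drawn up with earlier results of these data known. PolyA+ RNA was sequenced from embryonic stem cells (ESCs) carrying Kdm2b fl/fl alleles, in 3 replicates left untreated and 3 cultured with 4-hydroxytamoxifen for 72 hr. Both groups carry Kdm2b alleles in which Cre recombinase, once activated by tamoxifen, cuts out a floxed exon and with it much of the DNA-binding ZF-CxxC domain, so the untreated cells carry the same floxed alleles and the same inducible Cre. A treated group with unfloxed alleles was not analysed here, and effects of tamoxifen or of Cre cannot be told apart from loss of the domain. The sample labels give the dose as 800 nM, whereas the series text gives the same figure in µM. All 6 cultures come from 1 ESC line that was grown on feeder fibroblasts and left overnight without feeders before treatment. Groups were assigned by these labels. By name, the deposited tables carry the opposite assignment for all 6 samples. If those names were right, each difference below would keep its size and change its sign. From RNA-seq of these cells, the paper reports a very modest rise in average expression after tamoxifen for genes with less of the polycomb protein RING1B. By the labels, most of the genes described here were lower in the tamoxifen samples, which is the other direction. Which of them lost RING1B was not analysed here, and whether this bears on the assignment was not tested.

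Homeobox and PAX proteins bind DNA through a homeodomain or a paired domain and specify cell identity and position in the embryo, for example in the eye, neural tube, limb and heart. In ESCs most of these genes are silent or weakly transcribed, and their CpG island promoters are textbook targets of the polycomb repressive complexes PRC1 and PRC2. KDM2B binds nonmethylated CpG dinucleotides through its ZF-CxxC domain and is a subunit of the variant PCGF1/PRC1 complex, and the comparison asks how expression of such genes differs once that domain is deleted.

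Expression is given as FPKM (the fragments of a gene corrected for transcript length and library size), which allows levels to be compared between genes. Differences are on the log2(FPKM + 0.1) scale, as tamoxifen minus untreated, and understate the change of genes with low values. A level of at least 0.5 FPKM in at least 3 of the 6 samples was required, and the 12997 genes that met it were tested with limma, once by group alone and once with the replicate number of the labels as a block. Calls were made at a Benjamini-Hochberg adjusted p under 0.05 over all genes tested. Depth relative to untreated replicate 1, estimated from the values of genes under 0.3 FPKM, ranged from 0.653 to 0.954 in the other 5 samples, and tamoxifen replicate 3 was the shallowest. In each replicate number the tamoxifen sample was shallower than the untreated one (0.793 against 1, 0.877 against 0.954 and 0.653 against 0.765). The 10 pluripotency markers, among them Pou5f1 and Nanog, were all expressed, and 0 of 10 passed the threshold with the block by limma (0 without it, where 0 had an unadjusted p under 0.05). Kdm2b itself was at 25.4 ± 3.36 FPKM (SD, n = 3) in the untreated and 22.3 ± 2.6 (SD, n = 3) in the tamoxifen samples. This whole-gene value does not resolve the floxed exon and therefore does not check the labels.

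All 48 genes had 1 row each with a valid quantification. Their levels were low, from 0 to 12.7 FPKM in single samples. In the untreated samples 16 genes had a group mean of at least 1 FPKM, 23 lay between 0.1 and 1, and 9 lay under 0.1. In the tamoxifen samples these numbers were 10, 24 and 14. The 6 genes whose mean was at least 1 FPKM only in the untreated samples were Nkx2-5, Nkx2-9, Six5, Irx4, Irx5 and Msx1, and 0 genes went the other way. The share of all genes that crossed 1 FPKM in either direction was not computed. Over all genes, 11792, 11923 and 11761 had at least 1 FPKM in untreated and 11524, 11830 and 11667 in tamoxifen replicates 1, 2 and 3. Summed over the 48 genes, the level was 51.5, 49.3 and 60.7 FPKM in untreated replicates 1, 2 and 3. In tamoxifen replicates 1, 2 and 3 it was 28.2, 35.3 and 40.3 FPKM, without overlap of the groups. This separation depends on the scaling of the samples. FPKM over all rows summed to 1045707.3 in untreated replicate 2 and 648889.4 in tamoxifen replicate 3. Relative to those totals, the 48 genes were higher in that tamoxifen sample than in that untreated sample.

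Of the 48 genes, 21 passed the filter on low values and were tested, and 27 did not. By group alone, 0 of the 21 passed the threshold in either direction by limma, against 0.0231% of all genes tested called higher and 0.00769% called lower. At an unadjusted p under 0.05 there were 8 of the 21, against 4.79% of all genes tested. With the replicate block, 8 genes were lower in the tamoxifen samples (Pax6, Nkx2-9, Msx1, Irx2, En2, Lhx2, Meis1 and Irx5) and 0 were higher, against 6.06% of all genes tested called lower and 4.33% called higher. Among the 3933 genes tested with a mean under 4 FPKM, which is the range of 20 of the 21 tested genes, 6.89% were called lower. The calls rest on the block, which reduced the median standard error of the 21 genes from 0.39 to 0.22. They rest also on the pair numbered 2, since without its samples 1 of the 8 calls (Nkx2-9) was left, and 0.331% of all genes were called lower.

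Of the 13 tested genes that were not called, 4 had groups without overlap and 5 had a difference within 0.1 of 0. The median difference of the 21 tested genes was −0.66, against −0.019 over all genes tested and −0.13 over those with a mean under 4 FPKM. In 10 of the 21 genes all untreated samples lay above all tamoxifen samples and in 0 the reverse held, against 5.40% and 3.09% of all genes tested. Within replicate numbers, 16 of the 21 were lower in all 3 and 0 were higher in all 3, against 28.2% and 24.8% of all genes tested. Of the 21 genes, Lhx2 passed the filter only through its untreated samples. Scaling each sample to TPM brought the genes without overlap from 10 to 4 and the called genes from 8 to 4, and turned the split over all genes with the block from 787 lower and 563 higher to 336 lower and 430 higher. TPM scaling without loci under 300 bp went the other way, with 9 of the 21 genes called lower and 1190 lower and 421 higher over all genes.

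**Figure D1:**
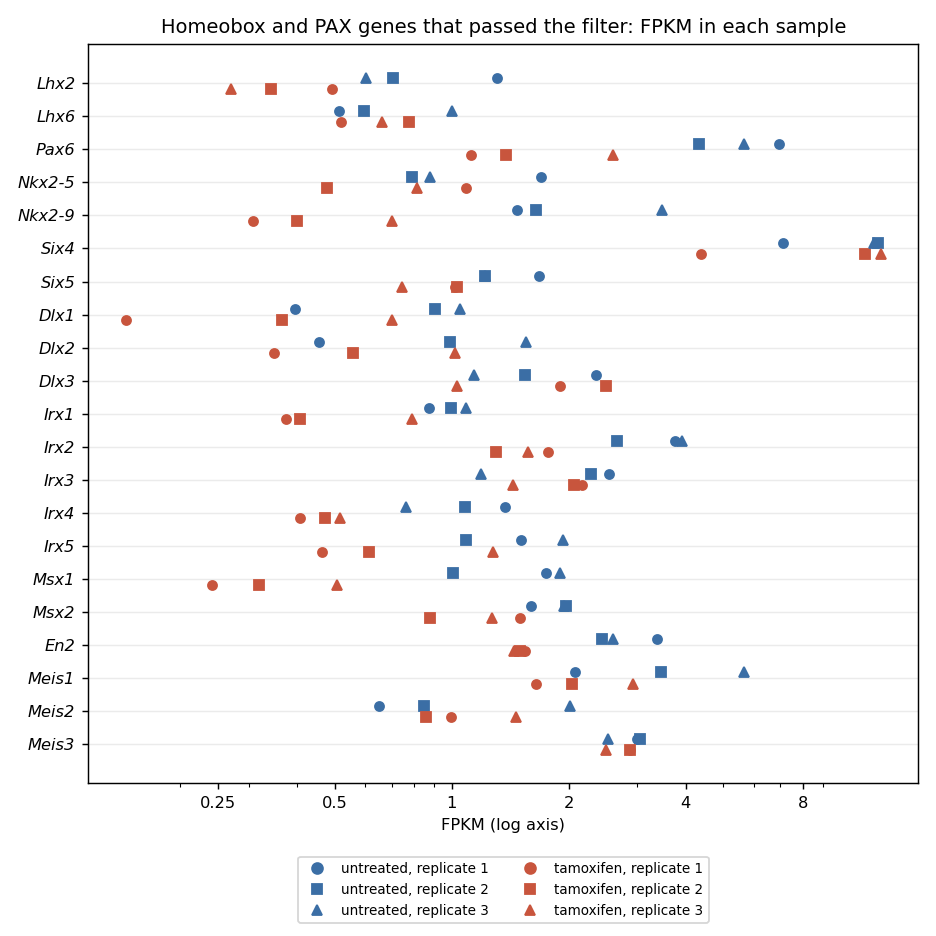
FPKM of the 21 tested homeobox and PAX genes in each sample on a log axis, with untreated samples in blue, tamoxifen samples in red and the replicate number as the marker shape. For Pax6, Nkx2-9, Msx1, Irx2, En2 and Lhx2 the red and blue points do not overlap, while those of Six4, Meis2 and Meis3 are mixed.

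**Figure D2:**
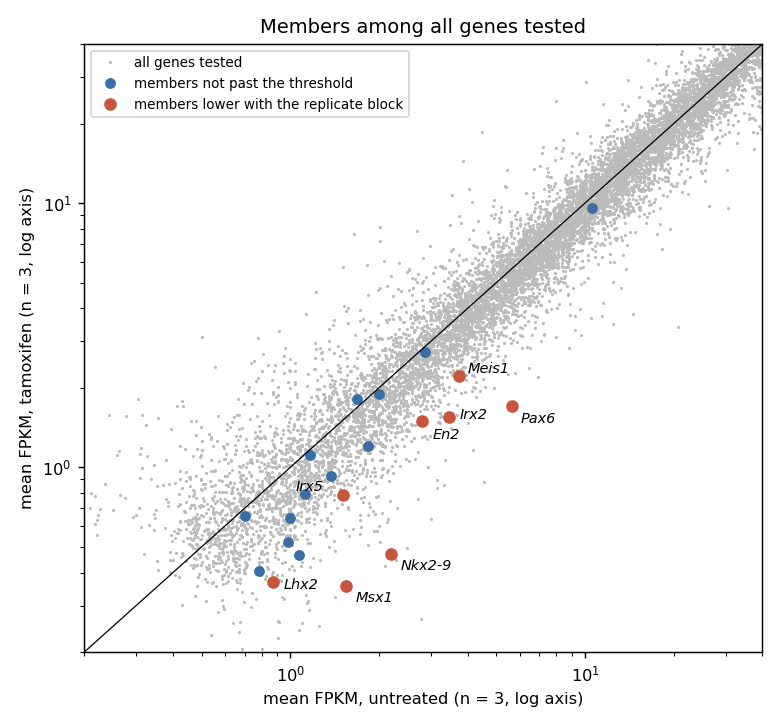
Mean FPKM of 3 untreated (horizontal) against 3 tamoxifen samples (vertical), both on log axes, for all genes tested (grey) and the tested homeobox and PAX genes (blue and, where lower with the replicate block, red). The 8 red points lie below the diagonal of equal levels, with Nkx2-9, Msx1 and Pax6 farthest from it.

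The windows upstream of 4 of the genes are shown because KDM2B reads CpG dinucleotides, which are in capitals. They include called genes and an uncalled one, a difference between genes that was not tested. Nkx2-9, Msx1 and Irx5 were called lower with the block, and Irx3, the neighbour of Irx5 on chromosome 8 with 556.1 kb between both, was not. Each window holds the 300 bases before the 5′ end of the deposited locus, on the strand of the gene, in the NCBIM37 (mm9) assembly. For these 4 genes that 5′ end lies at most 2 bp from the GENCODE start. They are chr12:57714272-57714571 (minus strand) for Nkx2-9, chr5:38215825-38216124 (minus strand) for Msx1, chr8:94881395-94881694 (plus strand) for Irx5 and chr8:94325554-94325853 (minus strand) for Irx3.
Nkx2-9: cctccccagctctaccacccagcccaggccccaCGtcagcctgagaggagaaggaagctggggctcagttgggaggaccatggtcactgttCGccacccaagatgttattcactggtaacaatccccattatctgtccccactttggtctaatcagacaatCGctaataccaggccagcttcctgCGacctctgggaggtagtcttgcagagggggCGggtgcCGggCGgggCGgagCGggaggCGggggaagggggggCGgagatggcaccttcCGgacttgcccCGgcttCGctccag
Msx1: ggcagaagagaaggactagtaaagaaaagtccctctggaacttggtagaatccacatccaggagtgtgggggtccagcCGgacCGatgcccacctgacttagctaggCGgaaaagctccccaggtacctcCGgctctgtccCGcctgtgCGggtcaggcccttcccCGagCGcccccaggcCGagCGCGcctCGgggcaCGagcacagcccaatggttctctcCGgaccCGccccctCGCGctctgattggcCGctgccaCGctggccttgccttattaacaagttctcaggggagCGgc
Irx5: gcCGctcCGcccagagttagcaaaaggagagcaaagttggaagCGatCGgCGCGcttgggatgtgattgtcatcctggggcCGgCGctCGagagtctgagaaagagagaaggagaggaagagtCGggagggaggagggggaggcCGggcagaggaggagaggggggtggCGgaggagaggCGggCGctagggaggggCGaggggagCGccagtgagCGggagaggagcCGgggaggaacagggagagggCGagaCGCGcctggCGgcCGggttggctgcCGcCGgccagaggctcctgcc
Irx3: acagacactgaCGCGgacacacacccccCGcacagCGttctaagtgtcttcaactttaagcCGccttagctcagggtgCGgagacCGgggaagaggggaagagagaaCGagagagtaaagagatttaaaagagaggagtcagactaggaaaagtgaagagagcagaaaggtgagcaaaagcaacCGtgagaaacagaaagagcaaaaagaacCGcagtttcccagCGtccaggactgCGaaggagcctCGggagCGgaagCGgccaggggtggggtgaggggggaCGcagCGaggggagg
The CG count was 14 for Nkx2-9, 20 for Msx1, 25 for Irx5 and 17 for Irx3. The 4 windows were picked by gene, and a relation of CG count to the difference was not tested.

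Counted in the same way, the windows of all 48 genes held a median of 17 CG (range 2 to 36). The 8 genes called lower had a median of 22.5 (14 to 35), the 13 tested genes not called 17 (7 to 28) and the 27 genes below the filter 16 (2 to 36). The median over the 12174 tested genes with a window was 18 and over all 20866 genes with one 11, and 99.4% and 94.6% of these windows held at least 1 CG. The ranges of called and uncalled genes overlapped along most of their length. Of the uncalled genes, Meis3 had 7 CG and a difference near 0, and Nkx2-5 had 8 CG and a difference of −0.44. Dlx2 with 25 CG had a difference of −0.53, and Irx1 with 27 CG and Dlx1 with 28 had −0.85 and −0.88. Irx1 and Dlx1 missed the threshold with the block and were called lower once the variance trend was left out. Among the called genes, Nkx2-9 had the fewest CG (14) and the largest difference (−1.97). The deposited start of Dlx1 lay 1332 bp from the GENCODE start. The count reads a single window, and the deposited start lay within 50 bp of the GENCODE start for 26 of the 48 genes. Methylation and KDM2B occupancy were not analysed here.

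**Figure D3:**
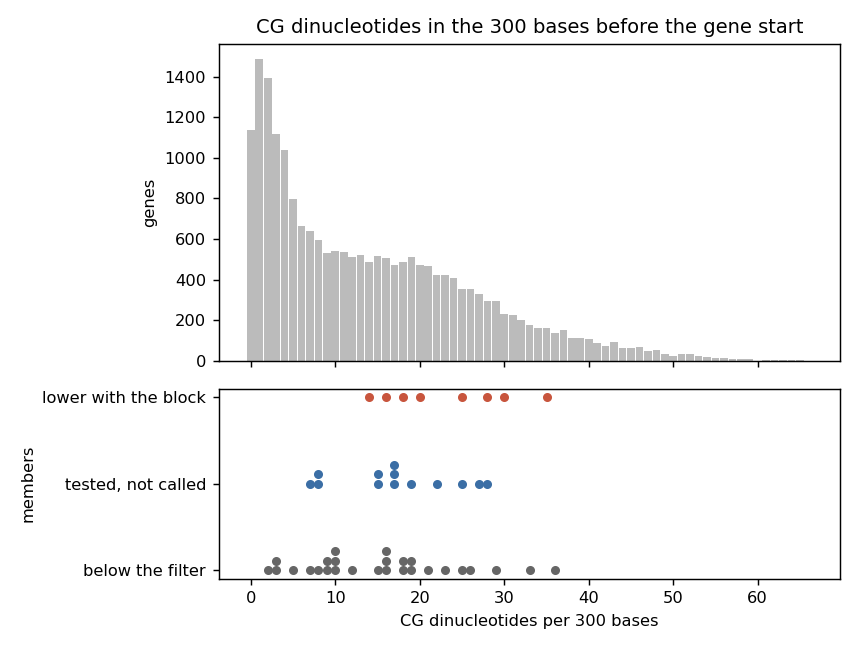
Number of CG dinucleotides in the 300 bases before the gene start for all 20866 genes with a window (upper panel, genes per count) and for each of the 48 homeobox and PAX genes (lower panel, 1 point per gene). The genes lower with the block span 14 to 35 CG, inside a range that the other genes also cover.

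Pax6, a master regulator of eye and forebrain development, was the most abundant of the called genes in the untreated samples, though not in the tamoxifen samples, where Meis1 was higher. It lies on chromosome 2 from 105509053 to 105537521 of mm9. Its FPKM was 6.96, 4.33 and 5.64 in untreated replicates 1, 2 and 3 and 1.12, 1.38 and 2.6 in tamoxifen replicates 1, 2 and 3. The lowest untreated sample was thus above the highest tamoxifen sample. The mean went from 5.64 ± 1.32 to 1.70 ± 0.789 FPKM (SD, n = 3), a difference of −1.73 on the log2 scale with a standard error of 0.35 and a limma adjusted p of 0.38 by group alone. Blocking by replicate number lowered the standard error to 0.25, with a limma adjusted p of 0.0103. The overlapping antisense gene Pax6os1 was listed at 0 in all 6 samples. Pax6 was the only PAX gene that passed the filter, and 8 did not.

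Nkx2-9, a homeobox gene of the ventral neural tube, is on chromosome 12 from 57712384 to 57714271 (minus strand). It was at 1.47, 1.65 and 3.47 FPKM in the untreated and 0.309, 0.399 and 0.702 FPKM in the tamoxifen samples. Untreated replicate 3 and tamoxifen replicate 3 were each the highest of their group, and the differences within replicate numbers were close to each other (−1.94, −1.81 and −2.16). With the block the difference of −1.97 had a standard error of 0.20 and a limma adjusted p of 0.00347, against 0.39 by group alone. Nkx2-5, a regulator of heart development, went from 1.12 ± 0.503 to 0.795 ± 0.307 FPKM (SD, n = 3) and was not called (difference −0.44, limma adjusted p = 0.217 with the block). The genes that flank Nkx2-9 on chromosome 12 were below the filter. Nkx2-1, 74.5 kb away, had a mean of 0.0468 FPKM in the untreated samples, and Pax9, 82.4 kb away on the other side, had 0.141 FPKM.

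Msx1 and Msx2 encode repressors that act in craniofacial and limb development downstream of BMP signals, and both passed the filter. Msx1, on chromosome 5 from 38211730 to 38215824, was at 1.75, 1.01 and 1.9 FPKM in the untreated and 0.242, 0.32 and 0.508 FPKM in the tamoxifen samples. No tamoxifen sample reached even the lowest untreated sample, and the difference was −1.85 (standard error 0.26 and limma adjusted p = 0.00949 with the block; 0.39 and 0.39 without it). The antisense gene Msx1as overlaps this locus and had at most 0.307 FPKM in any sample. Msx2, on chromosome 13 from 53562250 to 53568149, was at 1.6, 1.97 and 1.94 FPKM against 1.5, 0.88 and 1.27 FPKM. Its groups did not overlap either, but by a small gap between the first samples of each, and the difference of −0.58 had a limma adjusted p of 0.13 with the block.

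The IRX genes encode homeodomain factors of neural and heart patterning and lie in 2 clusters. The cluster on chromosome 13 holds Irx1, Irx2 and Irx4, with gaps of 665.3 and 626.3 kb between neighbours, and in all 3 the untreated samples lay above the tamoxifen samples. Irx2, from 72766426 to 72771642 on chromosome 13, was at 3.75, 2.67 and 3.92 FPKM against 1.77, 1.3 and 1.57 FPKM, a difference of −1.10 that passed the threshold with the block (standard error 0.15, limma adjusted p = 0.00813; 0.43 by group alone). Irx1 was at 0.873, 0.998 and 1.09 FPKM against 0.375, 0.407 and 0.79 FPKM, with a difference of −0.85 that missed it (limma adjusted p = 0.0654 with the block). Irx4 was at 1.37, 1.08 and 0.763 FPKM against 0.408, 0.473 and 0.517 FPKM, with a difference of −1.02 that also just missed it (limma adjusted p = 0.0513 with the block). In Irx1 the gap between groups was narrowed by tamoxifen replicate 3, and in Irx4 by untreated replicate 3.

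The cluster on chromosome 8 holds Irx3, Irx5 and Irx6 and was less uniform. Irx5, from 94881695 to 94885355, was at 1.51, 1.09 and 1.93 FPKM in the untreated and 0.465, 0.611 and 1.28 FPKM in the tamoxifen samples. Tamoxifen replicate 3 lay above untreated replicate 2, so that the groups overlapped. The difference of −0.93 was at the edge of the threshold (limma adjusted p = 0.0495 with the block, 0.057 once the variance trend was left out). Irx3 was at 2.54, 2.28 and 1.19 FPKM against 2.17, 2.06 and 1.44 FPKM, with a difference of −0.03 (standard error 0.17 with the block). Irx6 did not pass the filter, with means of 0.0384 and 0.0452 FPKM in the untreated and tamoxifen samples.

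En2, a marker of the midbrain and hindbrain boundary, is on chromosome 5 from 28492236 to 28498706. Its FPKM was 3.37, 2.43 and 2.6 in the untreated and 1.54, 1.5 and 1.45 in the tamoxifen samples. The tamoxifen samples varied little, and the difference of −0.85 was called with the block (standard error 0.16, limma adjusted p = 0.0207; 0.66 by group alone), though not after TPM scaling (limma adjusted p = 0.102). Its paralogue En1 did not pass the filter and went from 0.443 ± 0.239 to 0.313 ± 0.139 FPKM (SD, n = 3).

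Lhx2, a LIM homeobox gene required for the eye and forebrain, was at 1.31, 0.705 and 0.601 FPKM in the untreated and 0.492, 0.343 and 0.271 FPKM in the tamoxifen samples. It lies on chromosome 2 from 38206828 to 38225248. Replicate 1 was the highest in both groups, and no values overlapped. The difference of −1.01 had a limma adjusted p of 0.0413 with the block and 0.90 by group alone, and its call was lost without any single replicate pair. Lhx6, which acts in forebrain interneurons, was at 0.704 ± 0.262 and 0.652 ± 0.127 FPKM (SD, n = 3) and was not called (difference −0.06, which TPM scaling turned to 0.02).

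Meis1 to Meis3 encode TALE homeodomain cofactors of Hox proteins, and all 3 passed the filter. Meis1, on chromosome 11 from 18780431 to 18918972, was at 2.08, 3.45 and 5.65 FPKM in the untreated and 1.65, 2.04 and 2.93 FPKM in the tamoxifen samples. Both groups ranged widely and overlapped, and replicate 3 was the highest in each. The difference of −0.66 was called with the block (standard error 0.16, limma adjusted p = 0.0451; 1.00 by group alone). This call was lost without replicate pair 2 (limma adjusted p = 0.24) or pair 3 (0.183). Meis2 was at 1.17 ± 0.732 and 1.11 ± 0.316 FPKM (SD, n = 3). For Meis3 the means were 2.86 ± 0.288 and 2.74 ± 0.224 FPKM (SD, n = 3), the smallest standard error of the 21 tested genes by group alone (0.24). The differences of 0.05 for Meis2 and −0.05 for Meis3 changed sign under some scalings, and for Meis2 the sign on the log2 scale was already opposite to that of the group means.

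The sine oculis homeobox (Six2 to Six6) and DLX families had tested genes but no call. Six4, a regulator of muscle and sensory development, was the most abundant of the 48 genes at 7.1, 12.5 and 12.2 FPKM in the untreated and 4.37, 11.6 and 12.7 FPKM in the tamoxifen samples. Replicate 1 was the lowest in both groups, and the difference of −0.24 (standard error 0.15 with the block) was smaller than the spread between replicates. Six5 was at 1.68, 1.22 and 1.22 FPKM against 1.02, 1.03 and 0.744 FPKM. Its groups did not overlap, and the difference of −0.51 was not called (limma adjusted p = 0.132 with the block). Dlx1 and Dlx2, regulators of forebrain interneurons that lie 9.4 kb apart on chromosome 2, had differences of −0.88 and −0.53 (limma adjusted p = 0.0716 and 0.158 with the block), and both were lowest in replicate 1 of each group. Dlx1 had means of 0.783 ± 0.344 and 0.405 ± 0.282 FPKM (SD, n = 3), and Dlx2 of 0.997 ± 0.547 and 0.641 ± 0.343 FPKM (SD, n = 3). The antisense gene Dlx1as overlaps the Dlx1 locus and was at 0.049, 0.263 and 0.219 FPKM against 0, 0.091 and 0.127 FPKM. Its part in the Dlx1 values was not tested. Dlx3, an epidermal and placental factor, went from 1.68 ± 0.615 to 1.81 ± 0.739 FPKM (SD, n = 3), a difference of 0.08.

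**Figure D4:**
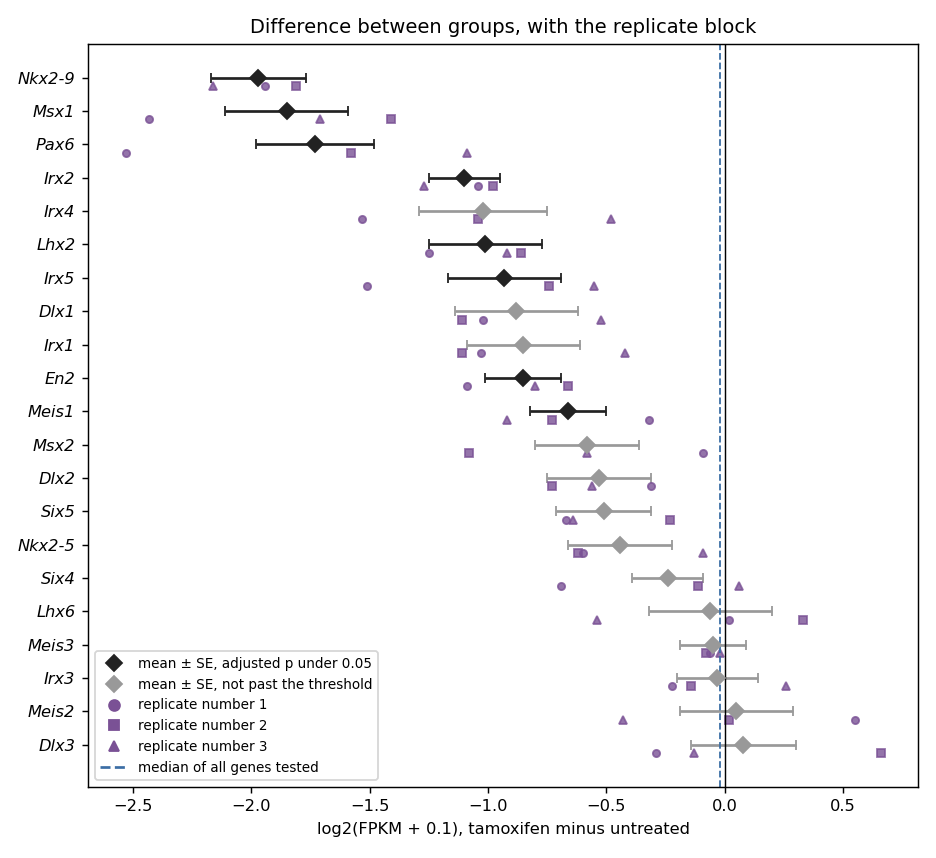
Difference in log2(FPKM + 0.1), tamoxifen minus untreated, for the 21 tested homeobox and PAX genes, as the mean ± standard error with the replicate block (diamonds, black where the adjusted p was under 0.05) and within each replicate number (purple). The median of all genes tested is the dashed line, and 19 of the 21 diamonds lie below 0. The share of all genes tested below 0 was not computed.

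The 27 genes below the filter had means of at most 0.5 FPKM in either group and were not tested. In 6 of them (Lhx5, Pax1, Nkx6-1, Six3, Dlx6 and Pitx1) the untreated samples all lay above the tamoxifen samples, and in 0 the reverse held. Of genes below the filter with a value above 0 in at least 3 samples, 7.47% were without overlap in the lower and 7.18% in the higher direction, and 25 of the 27 belong to this set. Nkx6-1, a gene of the ventral neural tube and of pancreatic beta cells, was at 0.162, 0.17 and 0.242 FPKM in the untreated samples, was listed at 0 in tamoxifen replicates 1 and 2 and was at 0.0355 FPKM in replicate 3. If the last value is taken as 1 fragment, the samples held 7, 7 and 8 fragments against 0, 0 and 1, which shows how little sequence stands behind values of this size. In 8 of these genes the values fell on such steps within a tolerance of 0.1 fragment, and 1 fragment was worth 0.0151 to 0.0424 FPKM in untreated replicate 1.

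Among the other genes without overlap, Lhx5, a gene of the forebrain, was at 0.313, 0.188 and 0.304 FPKM against 0.0919, 0.0332 and 0.0668 FPKM. Six3, a regulator of the eye field and anterior forebrain, was at 0.223, 0.311 and 0.581 FPKM against 0.0402, 0.121 and 0.162 FPKM. Both were detected in every sample, in no tamoxifen sample as high as in the lowest untreated one. Dlx6 went from 0.138 ± 0.0655 to 0.0178 ± 0.0309 FPKM and Pitx1, a hindlimb and pituitary gene, from 0.215 ± 0.039 to 0.0949 ± 0.0704 FPKM (SD, n = 3). Pax1, a sclerotome gene, had means of 0.091 and 0.0276 FPKM.

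In the remaining genes below the filter the groups overlapped. Those with a group mean of at least 0.1 FPKM were Lhx3, Lhx9, Pax2, Pax3, Pax8, Pax9, Nkx2-2, Nkx2-3, Six2, Six6, Dlx4, En1 and Pitx3. The largest untreated means among them were 0.5 FPKM for Dlx4, 0.492 for Six2, 0.443 for En1 and 0.428 for Pax3, the neural crest and muscle progenitor gene, against 0.2, 0.392, 0.313 and 0.308 FPKM in the tamoxifen samples. In Dlx4 the untreated value was set by replicate 1 at 0.844 FPKM, beside 0.239 and 0.418. Pax8, a thyroid and kidney gene, was higher in the tamoxifen sample of all 3 replicate numbers, with means of 0.14 ± 0.0857 and 0.216 ± 0.089 FPKM (SD, n = 3). Lhx4, Lhx8, Pax4, Pax5, Pax7, Nkx2-1, Dlx5 and Irx6 were under 0.1 FPKM in both group means. Over all 48 genes the difference was negative in 39, with a median of −0.39, against a median of 0 over all 23363 genes without a filter. The share of all genes with a negative difference was not computed.

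**Figure D5:**
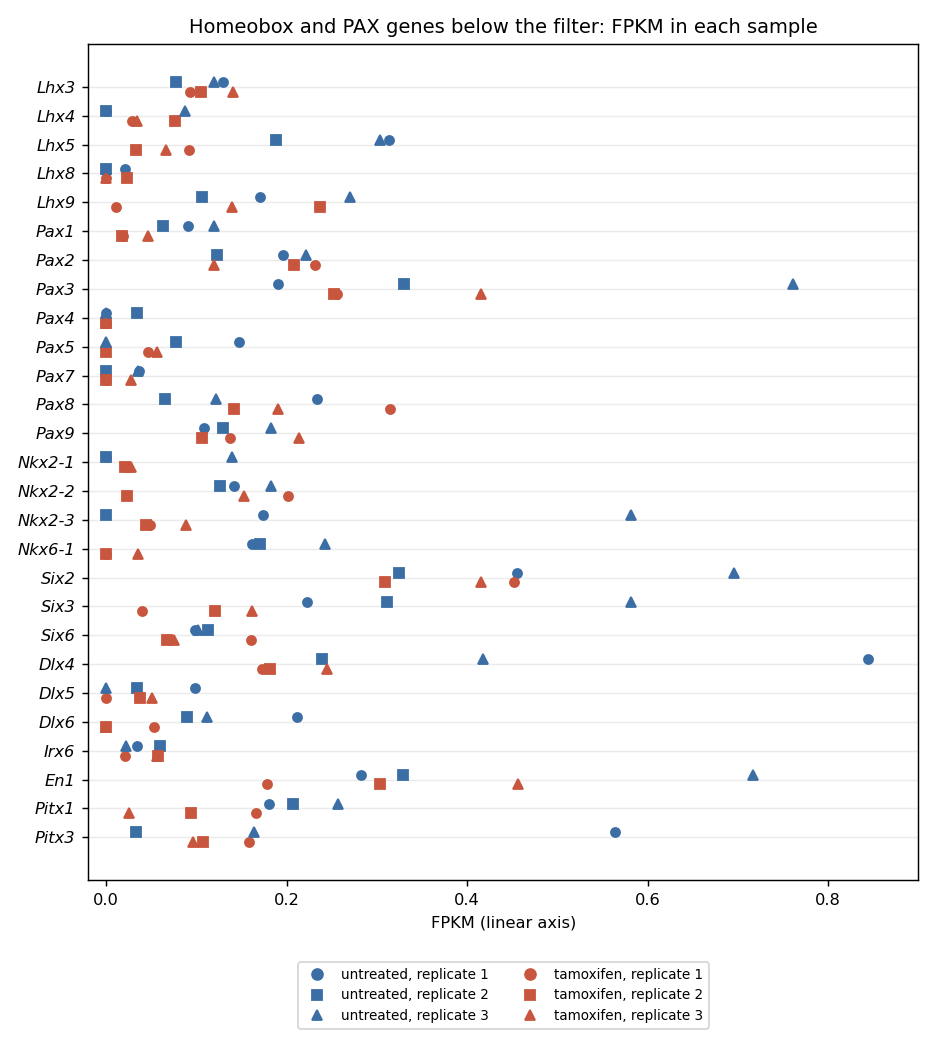
FPKM of the 27 homeobox and PAX genes below the filter in each sample on a linear axis, with untreated samples in blue, tamoxifen samples in red and the replicate number as the marker shape. All but a few values lie under 0.5 FPKM, and in Lhx5, Nkx6-1 and Six3 the blue points lie to the right of the red ones.

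For comparison, 91 other homeobox genes outside the Hox clusters were taken by name. Of these 34 passed the filter, and with the block 13 were lower and 1 was higher, against 6.06% and 4.33% of all genes tested. By limma without the block 0 of 34 passed, and 13 had an unadjusted p under 0.05, against 4.79% of all genes tested. The median difference of the 34 was −0.21, and 6 of them had passed the filter only through the untreated samples. The 13 genes included Barx1 (difference −2.04), Gbx2 (−0.79), Tlx3 (−1.02), Msx3 (−1.79), Hmx1 (−1.64) and Isl2 (−1.61), with limma adjusted p-values of 0.00358 to 0.015 with the block. The gene called higher was Pknox2, a TALE homeobox gene related to the MEIS genes, at 0.79, 0.388 and 1.01 FPKM in the untreated and 1.37, 1.15 and 2.04 FPKM in the tamoxifen samples (difference 1.01, limma adjusted p = 0.0271 with the block). Whether the 48 genes differed from these 91 was not tested.

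Markers of other cell types moved with part of these results. In bulk RNA, fewer cells of a type and less RNA per cell cannot be told apart. Of 12 neural markers 7 passed the filter, and 5 (Sox1, Nes, Neurod1, Elavl3 and Olig2) were lower with the block. Their summed level was 102 to 124 FPKM in the untreated and 89.1 to 94.5 FPKM in the tamoxifen samples. Tubb3, which was not called, was the most abundant of the list at 53.8 and 59.4 FPKM, and 5 of the 12 did not pass the filter. Of 10 mesoderm and endoderm markers 5 passed the filter, and 4 (Eomes, Hand1, Gata4 and Gata6, of which Gata6 passed only through its untreated samples) were lower with the block, with sums of 16 to 22.5 FPKM against 9.54 to 15.7 FPKM. Of 16 feeder fibroblast markers 15 passed the filter and 1 (Twist1) was lower, with sums of 65.1 to 164 FPKM against 94.3 to 131 FPKM. These counts stand against 6.06% of all genes tested called lower with the block, and by group alone 0 genes of the 3 lists passed by limma (4 neural, 2 mesoderm and endoderm and 1 feeder marker had an unadjusted p under 0.05). These lists stand beside the lower homeobox and PAX genes, and their part in the result was not tested.

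The feeder markers followed the replicate number instead. In 11 of the 15, replicate 1 was the lowest sample of both groups, and the same held for 7 of the 21 tested homeobox and PAX genes (Lhx6, Nkx2-9, Six4, Dlx1, Dlx2, Irx1 and Meis1). Col1a1, the most abundant collagen gene of the list, was at 15.6, 40.3 and 31.2 FPKM in the untreated and 19.3, 38.2 and 29.7 FPKM in the tamoxifen samples. Replicate 1 was the highest of both groups for Lhx2, Nkx2-5, Irx3 and En2, 4 of the 21. The share of all genes tested with replicate 1 lowest, or highest, in both groups was not computed, so these counts have no background. Among the 34 other tested homeobox genes, replicate 1 was the lowest of both groups in 3 and the highest in 10. The part of feeder cells in the levels of the 7 genes was not tested.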

How the data were processed

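RNA-seq was taken from 6 samples, 3 per group, and the other 17 samples of the series (ChIP-seq and input) were not analysed here. The authors prepared directional paired-end libraries from polyA+ RNA, aligned them to mm9 with Tophat2 and derived expression values with Cuffdiff 2.1.1 on refGene models. They deposited FPKM per gene row, with no read counts. Whether counting used the strand is not given in the sources used here, so values of genes with an antisense partner are uncertain (9 of the 48 loci overlap another gene).

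FPKM was summed by gene name, and 6 gene names with a failed quantification were left out. Genes with at least 0.5 FPKM in at least 3 samples were tested on log2(FPKM + 0.1), using lmFit and eBayes (mean-variance trend) of limma 3.58.1 under R 4.3.3, once by group alone and once blocked by replicate number. Adjustment was by Benjamini-Hochberg. The study describes biological triplicates. The numbers pair the samples: deviations from the group means correlated across genes at 0.544, 0.605 and 0.506 for same-numbered samples and at −0.105 to −0.379 for the others. The fits were tested on simulated data. Depth is unknown beyond the relative values estimated from low genes, so no counting intervals are given.

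The genes described and the comparison lists were chosen with earlier results of these data known. All tested genes are named, with all 6 values for those called or without overlap (also for Irx3, Six4 and others chosen after their values were seen), as are genes below the filter with a group mean of at least 0.1 FPKM, up to 8 of the other homeobox genes by adjusted p (some are not reported here), and marker genes as lists. Alternatives were other pseudocounts, scalings, filters and variance models, and leaving out samples. Windows came from NCBIM37 and its GENCODE annotation, in which 20866 of 23105 gene names with 1 row matched by name and position. Both strands read alike for CG. Calculations outside R used Python 3.11.15 with pandas 2.3.3 and numpy 2.4.6.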

Additional observations from a re-analysis of the deposited data

How the results depend on the processing

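With limma, 0 of the 48 genes passed in either direction without the replicate block under each alternative run, and with the block 0 were higher under each. Lower with the block were 8 genes, 4 after TPM scaling, 4 of 8 tested where at least 1 FPKM was required in all samples, 5 with a mean of at least 0.5 FPKM as the filter (chosen after seeing the data), 0 with no replicate block and 0 with no filter on low values. The shares of all genes tested called lower were 6.06% as designed, 2.59% after TPM scaling, 9.62% at 1 FPKM in all samples and 4.48% with the mean filter. With no filter, 0 of all 23363 genes were called by limma in either direction with the block. In that fit 16 of the 48 genes had an unadjusted p under 0.05, against 3857 of the 23363. Leaving out one replicate number gave 1 to 7, the 1 without replicate 2, against 0.331% to 7.78% of all genes tested. Where they were tested, Nkx2-9 was lost only with no filter, Pax6, Irx2 and Msx1 only there and without replicate 2, and the calls of Lhx2, En2, Irx5 and Meis1 under 3 to 9 alternatives with the block. Other homeobox genes lower with the block went from 13 to 0 with no filter or no block, 4 at 1 FPKM in all samples, 7 with the mean filter and 1 to 11 without a replicate, and those higher from 1 to 0 with no filter or no block and 0 to 2 without a replicate. Genes without overlap went from 10 to 4 with TPM scaling. Apart from the smaller number tested at 1 FPKM, the cause was not tested.

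The median difference of tested genes was −0.658. It was −0.365 with a pseudocount of 1, −0.563 with TPM scaling, −0.758 with TPM scaling without loci under 300 bp, −0.539 with quantile normalization, −0.393 over all 48 genes with no filter, −0.451 at 1 FPKM in all samples, −0.756 as log2 ratio of group means, and −0.588 to −0.856 without a single sample. TPM scaling moved the median of all genes from −0.019 to 0.081. Genes near 0 changed sign. With TPM scaling and with quantile normalization, Lhx6 was at 0.023 and 0.067, Irx3 at 0.061 and 0.078, and Meis3 at 0.044 and 0.056. TPM scaling without loci under 300 bp gave −0.005 for Dlx3 and −0.031 for Meis2, which was at −0.001 with a pseudocount of 1. Leaving out a single sample gave −0.235 to 0.189 for Lhx6, −0.522 to 0.24 for Six4, −0.184 to 0.415 for Dlx3, −0.355 to 0.164 for Irx3, −0.26 to 0.486 for Meis2 and −0.137 to 0.014 for Meis3, and leaving out a replicate pair with the block gave −0.261 to 0.173 for Lhx6, −0.213 to 0.265 for Dlx3, −0.182 to 0.059 for Irx3 and −0.206 to 0.284 for Meis2. Fragments behind most values are few, which limits all genes below the filter.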
